A study of Homo sapiens with 12 samples.

Results

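KYSE410 is an established human cell line of esophageal squamous cell carcinoma. Its response to low oxygen was read from 6 RNA-seq libraries, 3 of wild-type cells in 0.5% oxygen (hypoxia) and 3 of wild-type cells in 21% oxygen (normoxia), out of 12 libraries in a study that also sequenced the line KYSE150. The libraries were chosen by the line and the oxygen level in their labels, and a gene was tested where it averaged 1 FPKM or more across these 6 libraries, as 12054 of the 30106 listed genes did. FPKM counts sequenced fragments per kilobase of a transcript and corrects for the size of the library. The labels put the hypoxic cells at 48 h and the normoxic cells at time 0, whereas the design text gives both oxygen levels the same incubation, so the time in normoxia is not settled. No group carried a drug or an engineered gene according to the labels. One line was used here, and the labels do not say whether the replicates were grown apart. The p-values therefore rest on library-to-library spread, part or all of which may be technical. The normoxia libraries carry sample-sheet numbers 38 to 40 and the hypoxia libraries 56 to 58, so within KYSE410 the oxygen level and the library set cannot be told apart.

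Cells sense oxygen through prolyl hydroxylases, which mark the HIF alpha subunits for destruction through the VHL ubiquitin ligase when oxygen is present. When oxygen is scarce, HIF alpha pairs with ARNT, binds DNA at a short core sequence and raises genes of glucose uptake, glycolysis, mitophagy, blood vessel growth and pH control. A separate programme, the integrated stress response, works through the transcription factor ATF4, which raises genes of amino acid transport, amino acid synthesis and tRNA charging when amino acids run short or proteins misfold. In squamous epithelium the basal layer is marked by p63, keratin 5 and keratin 14, and the layers above it by differentiation keratins and cornified envelope proteins.

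In KYSE410 in hypoxia, glycolytic genes, collagen-modifying enzymes, the mitophagy receptor genes BNIP3 and BNIP3L and 8 of 14 secreted factors were higher, while most measured genes of the ATF4 programme, amino acid transporters and cytosolic tRNA synthetases were lower. All 13 mitochondrially encoded mRNAs were lower, whereas most nuclear respiratory chain genes and all 78 measured cytosolic ribosomal protein genes were higher (64 of them after quantile normalization). Basal squamous keratins were higher, and ligands of the EGF receptor, IL1A, IL6 and targets of YAP and TEAD were lower. NDRG1, a stress-response gene, had the largest rise of any tested gene, from 13.8, 17.9 and 16.5 FPKM in normoxia to 1225, 1124 and 1232 FPKM in hypoxia, a change of 6.14 ± 0.08 (SE) on the log2(FPKM + 1) scale, which all log2 changes here use. CHAC1, a glutathione-degrading enzyme, had the largest fall of any tested gene, from 14.2, 15.2 and 15.6 FPKM to 0.0263, 0.0486 and 0.0433 FPKM.

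The 7 promoter stretches printed here are shown because they belong to genes that rose or fell strongly and hold one form of the core letters bound by HIF (ACGTG, the other form being GCGTG) or the letters of a composite element bound by ATF4 with a C/EBP partner (TGATGCA). They come from the RefSeq promoter table on GRCh38.p14, lie before the transcription start and are printed 5′ to 3′ on the strand of the gene, with each match in capitals. A match on the opposite strand therefore reads CACGT or TGCATCA. The 4 stretches of genes that rose are BHLHE40 (chr3:4979276-4979304, plus strand), CA9 (chr9:35673898-35673926, plus strand), ALDOC (chr17:28576907-28576935, minus strand) and BNIP3 (chr10:131982014-131982096, minus strand), and those of genes that fell are CHAC1 (chr15:40953252-40953280, plus strand), CEBPG (chr19:33374031-33374112, plus strand) and JDP2 (chr14:75427966-75428021, plus strand).
BHLHE40: cacagggtagaaCACGTagctccaaccca
CA9: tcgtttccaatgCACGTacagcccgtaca
ALDOC: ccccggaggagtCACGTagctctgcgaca
BNIP3: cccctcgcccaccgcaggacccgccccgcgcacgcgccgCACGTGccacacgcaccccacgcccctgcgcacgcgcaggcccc
CHAC1: tcccctgccgtTGCATCActcctgccagg
CEBPG: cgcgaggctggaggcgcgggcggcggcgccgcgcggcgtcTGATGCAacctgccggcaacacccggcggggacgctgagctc
JDP2: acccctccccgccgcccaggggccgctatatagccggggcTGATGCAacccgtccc

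The stretches of BHLHE40, CA9, ALDOC and CHAC1 overlap a GENCODE 29 exon, and those of BNIP3, CEBPG and JDP2 do not. The match in BNIP3 is CACGTG, which holds ACGTG on both strands and is also the E-box read by other factors. Both strands of the 250 bases before each start were searched. ACGTG was found for 49 of 96 tested genes of the HIF-related lists described in the next paragraphs (51%) and for 23 of the 39 that rose by 1 or more on the log2 scale (59%), a size of rise that 6.29% of all tested genes reached. The same letters were found for 29.5% of the 8942 tested genes with a window and in 18.5% of the 35116 windows in the table. Among all genes that rose by at least 1, 31.3% held it, and among all that fell by at least 1, 28.2%. GCGTG was found for 64.6% of those 96 HIF-related genes and 54.3% of tested genes, and its shares had the opposite order, at 50.3% of all genes that rose by at least 1 and 56.6% of those that fell by at least 1. CACGTG, which overlaps ACGTG, was found for 22 of those 96 HIF-related genes (22.9%), against 11.4% of tested genes. It was found for 9 of the 39 that rose by 1 or more (23.1%). A window with CACGTG also holds ACGTG, so part of the ACGTG count comes from this E-box. The HIF-related lists include the circadian genes. TGATGCA was found for 3 of the 17 ATF4 axis genes with a window (17.6%), the 3 shown, against 1.54% of tested genes and 2.16% of windows. These counts describe letters in a window and carry no measurement of binding.

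Libraries of one oxygen level resembled each other, with Pearson r of 0.9932 to 0.9964 across genes on the log2 scale, against 0.8849 to 0.888 between levels (genes are not independent replicates). The depth is unknown because only FPKM was deposited. FPKM summed to 351501 to 356994 in normoxia and to 415926 to 425094 in hypoxia, and 22787 to 23723 genes were above 0 per library. At a Benjamini-Hochberg adjusted p under 0.05 in limma, 83.1% of tested genes were called, 31.2% higher (3763) and 51.9% lower (6254), and the groups did not overlap for 84.6%. With a log2 change of 1 or more in size, 758 genes (6.29%) were higher and 1848 (15.3%) lower. The median change over all tested genes was -0.21, and every list described next is to be read against these shares and this median. Rescaling by the median of ratios moved the median to -0.03 and the share of higher calls from 37.6% to 48.2% (4841 higher, 5194 lower), quantile normalization moved that share to 49.7% (4925 and 4985), and a common sum moved the median to -0.42 and the share to 26.8% (2746 and 7503). Removing a trend with transcript length and GC content gave 4805 higher and 4688 lower, a share of 50.6%.

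The change also moved with transcript length and level. Its median was 0.45 for 914 genes whose longest transcript has up to 1000 nucleotides and -0.48 for 2037 genes over 6000 nucleotides. It was 0.51 for 536 genes over 100 FPKM and -0.27 for 4283 genes between 1 and 5 FPKM. Squamous carcinoma markers were present, with 8 of 11 tested higher and 3 lower and a summed level of 606 to 634 FPKM in normoxia and 1597 to 1631 FPKM in hypoxia, except SOX2, which averaged 0.0175 and 0.0174 FPKM. Fibroblast markers summed to 2.81 to 3.64 FPKM in normoxia and 2.56 to 3.42 FPKM in hypoxia, and endothelial markers to 0.0505 to 0.143 and 0.0661 to 0.143 FPKM. Immune cell markers summed to 30 to 33.1 FPKM in normoxia and 82.5 to 87.5 FPKM in hypoxia, of which CD68, a lysosomal protein that epithelial cells also make, held averages of 31.5 and 83.4 FPKM, while the leukocyte gene PTPRC averaged 0.0098 and 0 FPKM. Genes with near-identical copies or pseudogenes, among them GAPDH, ENO1, ribosomal protein, ferritin, keratin, metallothionein and histone genes, and genes that overlap another gene, are uncertain, since how the authors assigned shared fragments and strand is not given in the sources used here.

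Glucose transporters and glycolytic enzymes rose together, 21 of 22 higher and 1 lower, with a median change of 1.50 and a summed level of 4123 to 4343 FPKM in normoxia and 14746 to 15300 FPKM in hypoxia. SLC2A3, the high-affinity glucose transporter GLUT3, had 11.6, 12.5 and 14 FPKM in normoxia and 209, 205 and 214 FPKM in hypoxia (3.94 ± 0.06). SLC2A1, the widely used transporter GLUT1, had 40, 38.2 and 38.4 FPKM and then 112, 109 and 111 FPKM (1.49 ± 0.03). In both genes every hypoxic library lay above every normoxic one, and hypoxic GLUT3 was higher than hypoxic GLUT1 in FPKM, the reverse of their order in normoxia. LDHA, which turns pyruvate into lactate, went from 211, 212 and 246 FPKM to 1415, 1399 and 1424 FPKM (2.66 ± 0.06). ALDOC, the aldolase gene whose promoter is printed above, went from 3.1, 4.22 and 3.28 FPKM to 39.8, 34.7 and 38.4 FPKM (3.09 ± 0.09).

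The rise was uneven along the pathway. GPI, PGK1, ALDOA and GAPDH rose by 2.21, 2.20, 2.11 and 2.02, and ENO2, which overlaps LRRC23 on the same strand, by 2.69. The phosphofructokinase genes PFKL, PFKP and PFKM, which encode the committed step, rose by 0.75, 0.74 and 0.43, and PFKFB3, which makes their activator, by 0.35. The hexokinase gene HK2 rose by 1.51 and HK1 by 0.50 (limma, adjusted p at most 3.355e-05 for the glycolytic genes named so far). PFKFB4, of the same family as PFKFB3, rose by 2.24, so the small rise of PFKFB3 does not stand for the family. The lactate exporter gene SLC16A3 rose by 1.18, while the lactate carrier gene SLC16A1 was the 1 member called lower, at 78.3, 77.5 and 80.4 FPKM in normoxia and 65.3, 61.2 and 64.4 FPKM in hypoxia (-0.30), a direction that turned to 0.04 with the length and GC trend removed. Of 11 glycogen genes 8 rose and 0 fell, with a median of 0.44. GBE1, the glycogen branching enzyme, went from 5.39, 5.22 and 5.28 FPKM to 35.6, 34.8 and 36 FPKM (2.53 ± 0.04), and GYS1, glycogen synthase, rose by 0.97.

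**Figure D1:**
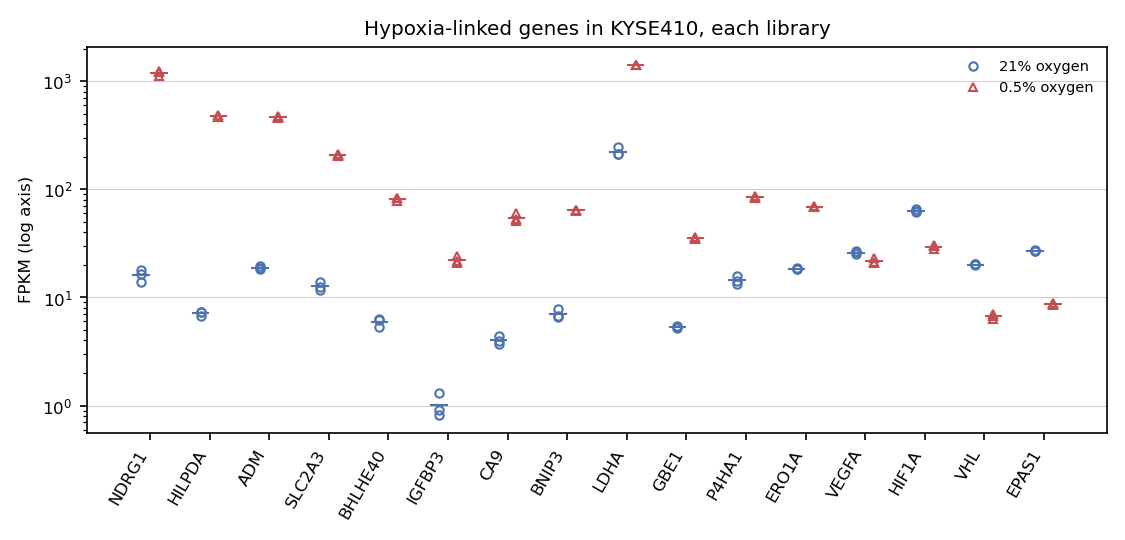
FPKM of hypoxia-linked genes in each KYSE410 library, on a log axis, with circles for 21% oxygen, triangles for 0.5% oxygen and bars for group means (n = 3). NDRG1 rises from between 13.8 and 17.9 FPKM to between 1124 and 1232 FPKM.

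Among genes that adapt mitochondria to low oxygen, 9 of 15 rose and 5 fell, with a median of 0.36. BNIP3, a receptor that brings mitochondria to autophagosomes, had 6.71, 7.77 and 6.53 FPKM in normoxia and 62.4, 64.2 and 64.9 FPKM in hypoxia (3.02 ± 0.06). Its relative BNIP3L went from 17.7, 18 and 18.7 FPKM to 70.7, 66.5 and 67.9 FPKM (1.86 ± 0.04), and FUNDC1, another mitophagy receptor, rose by 0.73. The receptor gene BCL2L13 fell by 0.74, from 45.9, 43 and 44.6 FPKM to 25.7, 25.3 and 27.9 FPKM, and PHB2, an inner membrane receptor, fell by 0.21 (-0.00 and not called after median-of-ratios scaling). PDK1, the kinase that keeps pyruvate out of the mitochondrion, had 14.1, 12 and 18 FPKM in normoxia and 31.3, 25.2 and 30.8 FPKM in hypoxia, with more spread between libraries than BNIP3 and BNIP3L (0.95 ± 0.14, adjusted p = 1.959e-04). MXI1, a MAX partner, rose by 1.93. The mitochondrial protease gene LONP1 fell by 0.84, from 73.9, 73.5 and 68.3 FPKM to 39.6, 39.2 and 40.3 FPKM, and HIGD1A, of the respiratory supercomplexes, fell by 0.51.

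Secreted and vascular factors were mixed, with 8 of 14 higher and 5 lower. ADM, the vasodilator adrenomedullin, had 18.2, 18.9 and 19.4 FPKM in normoxia and 464, 452 and 481 FPKM in hypoxia (4.55 ± 0.04), and IGFBP3, which binds insulin-like growth factors, had 0.902, 1.31 and 0.816 FPKM and then 20.7, 21.9 and 24.4 FPKM (3.54 ± 0.10). The urokinase receptor gene PLAUR rose by 1.99. STC2, a stanniocalcin that is also an ATF4 target, moved the other way, from 40.1, 40.4 and 38.8 FPKM to 4.12, 4.24 and 4.4 FPKM (-2.96 ± 0.04). VEGFA, the main vessel growth factor, had 25, 26.2 and 26.6 FPKM in normoxia and 21.1, 20.7 and 23.1 FPKM in hypoxia (-0.25, adjusted p = 0.00159), and its direction turned to 0.31 with the length and GC trend removed. ANGPTL4 averaged 0.0166 FPKM in normoxia and 0.0142 in hypoxia and was not tested.

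Among pH genes 6 of 9 rose and 2 fell. CA9, the cell-surface carbonic anhydrase used as a hypoxia marker, had 3.97, 4.43 and 3.74 FPKM in normoxia and 60.2, 50.5 and 53.4 FPKM in hypoxia (3.46 ± 0.08). CA2, the cytosolic enzyme, rose by 2.42, from 4.4, 5.39 and 5.04 FPKM to 28.4, 29.2 and 34.7 FPKM. CA12 averaged 0.00409 and 0.00212 FPKM. The bicarbonate cotransporter gene SLC4A7 fell by 1.38.

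Enzymes that hydroxylate or crosslink collagen rose in 9 of 10 cases and fell in 1, with a median of 1.55. P4HA1, the catalytic subunit of prolyl 4-hydroxylase, went from 13.3, 15.7 and 14.3 FPKM to 87, 83.5 and 83.9 FPKM (2.48 ± 0.06). Its partner P4HB, which is also a protein disulfide isomerase, went from 104, 103 and 98.6 FPKM to 299, 300 and 299 FPKM (1.54 ± 0.03). The lysyl hydroxylase genes PLOD1 and PLOD2 rose by 1.65 and 1.19, the lysyl oxidase gene LOXL2 by 2.26 and the oxidase ERO1A, which recharges P4HB-type isomerases, by 1.84. LOXL4 fell by 0.89, and LOX, a hypoxia target in many cells, averaged 0.0878 FPKM in normoxia and 0.0387 in hypoxia.

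Among transcription regulators tied to hypoxia 9 of 14 rose and 3 fell. BHLHE40, a repressor that also feeds back on the circadian clock, had 6.29, 5.34 and 6.21 FPKM in normoxia and 83.3, 78.2 and 82.7 FPKM in hypoxia (3.57 ± 0.06), and the histone demethylase gene KDM3A rose by 2.24. Of 10 circadian genes 3 were higher and 6 lower, shares near those of all tested genes (31.2% and 51.9%), with a median of -0.77. PER1, the nuclear receptor gene NR1D1 and the output gene DBP rose by 2.07, 1.77 and 1.19. CRY1, a core clock repressor, had 15.3, 15.5 and 17.3 FPKM in normoxia and 1.76, 1.63 and 1.57 FPKM in hypoxia (-2.68 ± 0.06), and PER2, ARNTL and CLOCK fell by 1.52, 1.08 and 0.81. PER1 and PER2 therefore lay on opposite sides of 0, and neither pair of groups overlapped.

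The oxygen sensors and HIF subunits themselves were lower or not called, apart from CITED2, which competes with HIF for its coactivators and rose by 1.43. Of 11 tested, 1 was higher and 7 were lower, with a median of -0.99. After median-of-ratios scaling 3 were higher and 7 lower, and with the length and GC trend removed 4 were higher and 7 lower. HIF1A had 62.4, 61.9 and 65.1 FPKM in normoxia and 30, 30.5 and 28.1 FPKM in hypoxia (-1.07 ± 0.04). EPAS1, which encodes HIF-2 alpha, went from 26.8, 27.3 and 27 FPKM to 8.64, 8.6 and 8.89 FPKM (-1.53 ± 0.04), and VHL from 20.2, 20.1 and 20.2 FPKM to 6.3, 6.72 and 7.08 FPKM (-1.46 ± 0.05). The coactivator genes EP300 and CREBBP fell by 1.21 and 1.18. Of the prolyl hydroxylases, EGLN1 had 15.4, 15.5 and 15.4 FPKM and then 15.5, 15.2 and 15.1 FPKM (adjusted p = 0.767, with a sign that differed between scalings, -0.01 as deposited and 0.45 with the length and GC trend removed), and EGLN3, a HIF target in many cells, averaged 0.00486 FPKM in normoxia and was listed at 0 in all 3 hypoxia libraries. The third prolyl hydroxylase gene, EGLN2, which overlaps RAB4B-EGLN2 on the same strand, fell by 0.99 (limma, adjusted p = 0.00208). These values are mRNA, while HIF alpha is controlled mainly as protein.

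**Figure D2:**
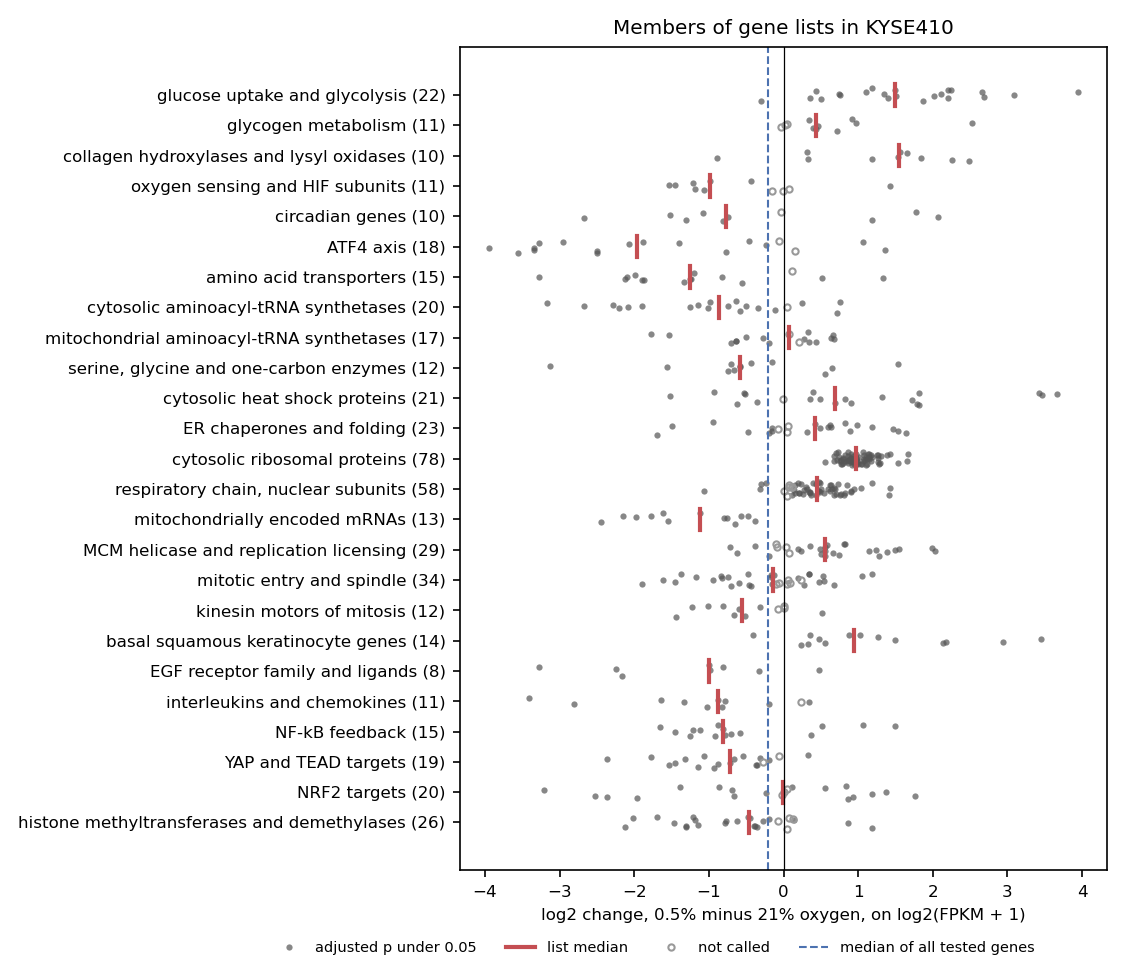
Log2 change of each tested member (points) and the median (bar) of gene lists in KYSE410, with filled points called at adjusted p under 0.05, open points not called and a dashed line at the median of all tested genes, -0.21. Glycolysis and collagen hydroxylases centre at 1.50 and 1.55, the ATF4 axis at -1.97.

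The ATF4 axis was lower in hypoxia, with 14 of 18 genes down, 2 up and a median of -1.97. TRIB3, a pseudokinase of this programme, had 113, 101 and 109 FPKM in normoxia and 7.91, 8.53 and 8.1 FPKM in hypoxia (-3.56 ± 0.05). CEBPG, a C/EBP partner of ATF4 whose promoter is printed above, went from 62.6, 62.8 and 61.8 FPKM to 5.01, 5.64 and 5.01 FPKM (-3.35 ± 0.05), and SESN2, a leucine sensor that restrains mTORC1, from 16.7, 15.8 and 16.6 FPKM to 0.762, 0.696 and 0.668 FPKM (-3.34 ± 0.06). For each of these genes the highest hypoxic library was far under the lowest normoxic one. JDP2 went from 7.26, 3.86 and 4.38 FPKM to 0.556, 0.449 and 0.306 FPKM (-2.07 ± 0.18), with normoxia replicate 1 above the other normoxic libraries. DDIT3, which encodes CHOP, and ATF3 fell by 1.88 and 1.40. ATF4 mRNA, which is controlled largely in translation, had 124, 183 and 167 FPKM and then 93.6, 90.1 and 90 FPKM (-0.77 ± 0.12, adjusted p = 3.831e-04).

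The 2 members that rose are the phosphatase subunit gene PPP1R15A, which reverses the stress signal (84.1, 91.2 and 89.6 FPKM, then 231, 227 and 229 FPKM, 1.36 ± 0.04), and DDIT4, an mTORC1 inhibitor also raised by HIF (533, 536 and 554 FPKM, then 1147, 1138 and 1119 FPKM, 1.07 ± 0.03). DDIT4 was the most abundant of the 18, and the summed level of the list was 1379 to 1446 FPKM in normoxia and 1579 to 1611 FPKM in hypoxia, although 14 members fell. Amino acid transporters were lower in 12 of 15 cases and higher in 2, with a median of -1.25, and their summed level went from 1418 to 1445 FPKM down to 669 to 701 FPKM. SLC7A11, the cystine importer, had 29.2, 31.8 and 30 FPKM in normoxia and 2.26, 2.31 and 2.12 FPKM in hypoxia (-3.28 ± 0.05). The glutamine carrier genes SLC38A2 and SLC1A5 fell by 1.99 and 1.90, and SLC7A5, the leucine transporter LAT1, by 1.34, from 530, 517 and 511 FPKM to 198, 222 and 195 FPKM. Its partner chain SLC3A2 fell by 0.55. SLC38A5, another glutamine carrier, rose by 1.33, from 21.5, 20.4 and 23.2 FPKM to 56, 56 and 56.3 FPKM.

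Cytosolic and mitochondrial aminoacyl-tRNA synthetases, which charge tRNAs for the respective ribosomes, gave different counts. Of 20 cytosolic genes 16 were lower and 3 higher, with a median of -0.86 and a summed level of 2459 to 2524 FPKM in normoxia and 1207 to 1247 FPKM in hypoxia. Of 17 mitochondrial genes 8 were lower and 7 higher, with a median of 0.07 that turned to -0.15 with a common sum, and their summed level was 306 to 309 FPKM in normoxia and 331 to 338 FPKM in hypoxia. AARS1, the alanyl enzyme, had 186, 192 and 183 FPKM in normoxia and 19.9, 20.3 and 19.7 FPKM in hypoxia (-3.17 ± 0.03). GARS1, which serves both compartments, went from 283, 306 and 296 FPKM to 44.1, 45.5 and 47.3 FPKM (-2.67 ± 0.04), and SARS1, YARS1, CARS1 and MARS1 fell by 2.28, 2.21, 2.08 and 1.89. The glutaminyl enzyme gene QARS1 rose by 0.72. In the mitochondrial set MARS2 and PARS2 fell by 1.77 and 1.53, from means of 5.06 and 2.4 FPKM, and IARS2, the most abundant member, rose by 0.43.

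**Figure D3:**
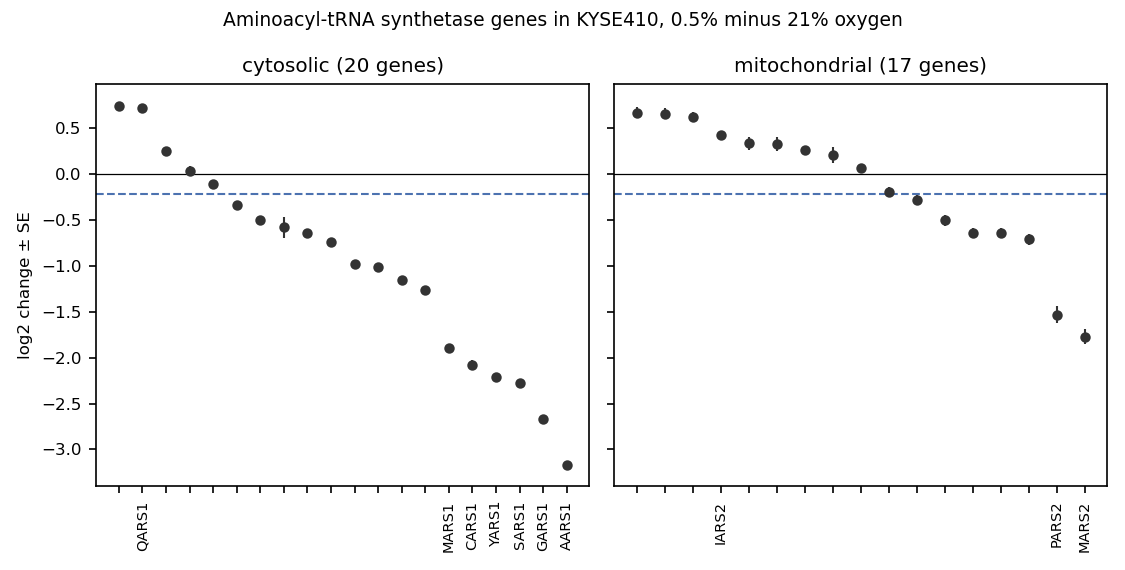
Log2 change ± SE (points and bars) of cytosolic (left) and mitochondrial (right) aminoacyl-tRNA synthetase genes in KYSE410, with names for the genes given in the text and a dashed line at the median of all tested genes. AARS1 is lowest at -3.17, and QARS1 lies at 0.72.

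Enzymes that make non-essential amino acids were also mostly lower. Of 12 serine, glycine and one-carbon genes 9 fell and 3 rose (median -0.58), and of 14 asparagine, proline and glutamine genes 10 fell and 2 rose (median -0.74). PSAT1, of serine synthesis, had 287, 307 and 295 FPKM in normoxia and 33.5, 31.4 and 33.9 FPKM in hypoxia (-3.13 ± 0.04), while PHGDH, the step before it, fell by 0.58 and PSPH, the step after it, by 0.74. MTHFD2, the mitochondrial folate enzyme, went from 136, 136 and 138 FPKM to 43.8, 46.5 and 47.3 FPKM (-1.56 ± 0.04). Among those that rose, TYMS, of thymidylate synthesis, and MTHFD1, of the cytosolic folate cycle, had changes of 1.54 and 0.65. GPT2, the mitochondrial alanine aminotransferase, had 47.6, 48.3 and 45.3 FPKM and then 5.67, 5.47 and 6.35 FPKM (-2.82 ± 0.06), and ASNS, asparagine synthetase, 207, 207 and 214 FPKM and then 51.5, 54 and 61.7 FPKM (-1.89 ± 0.06). Among genes that read energy supply, PRKAB1 of the AMP kinase fell by 1.23, MTOR by 0.71, and the mTOR inhibitor gene DEPTOR rose by 0.93, in a list of 16 with 6 higher and 9 lower.

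All 13 mitochondrially encoded mRNAs fell, with a median of -1.12, and their share of all FPKM went from between 9.36 and 10.2% in normoxia to between 3.86 and 4.17% in hypoxia. They fell under each rescaling run, with medians from -0.91 to -1.48. The fall was unequal. CYTB, the cytochrome b of complex III, had 1024, 1059 and 1184 FPKM in normoxia and 216, 194 and 186 FPKM in hypoxia (-2.45 ± 0.07), and the ATP synthase genes ATP8 and ATP6, which share a transcript and overlap, had changes of -2.15 and -1.98. COX1 had 5822, 6446 and 5794 FPKM and then 4755, 4474 and 4599 FPKM, with groups apart but a change of only -0.38 ± 0.05. ND6, the 1 mRNA read from the light strand, fell by 0.48, close to its neighbour ND5 on the other strand at 0.57. The ribosomal RNAs of the same genome moved the other way, RNR1 from 983, 1102 and 1014 FPKM to 2264, 2072 and 2150 FPKM (1.07 ± 0.05) and RNR2 from 5086, 5816 and 5436 FPKM to 7432, 6989 and 7256 FPKM (0.41 ± 0.05). Mitochondrial RNAs share sequence with nuclear copies, and how such fragments were assigned is not given in the sources used here. RNR1 and RNR2 are not mRNA, and how much of them the bead capture of mRNA took was not measured. In bulk RNA, fewer mitochondrial genomes and less RNA from each cannot be told apart.

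**Figure D4:**
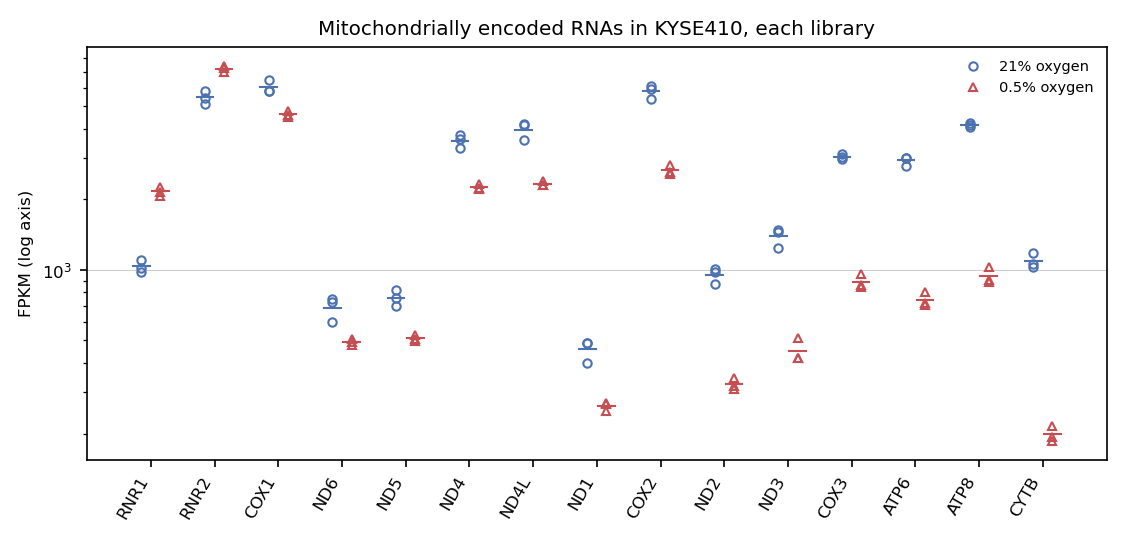
FPKM of the RNAs encoded in the mitochondrial genome in each KYSE410 library, on a log axis, with circles for 21% oxygen, triangles for 0.5% oxygen and bars for group means (n = 3). The ribosomal RNAs RNR1 and RNR2 are higher in hypoxia and all 13 mRNAs are lower, CYTB most.

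Nuclear genes for the respiratory chain moved opposite to the mitochondrial ones, with 48 of 58 higher, 4 lower and a median of 0.45 (0.29 after quantile normalization, with 41 higher and 9 lower). COX6B1, a complex IV subunit, had 71.3, 74.2 and 76.6 FPKM in normoxia and 200, 197 and 204 FPKM in hypoxia (1.43 ± 0.04), and ATP5F1A, the ATP synthase alpha subunit, 57.6, 56.6 and 46.7 FPKM and then 145, 138 and 147 FPKM (1.41 ± 0.07). UQCRFS1, the Rieske iron-sulfur protein of complex III, went the other way, from 26.8, 28.1 and 25.9 FPKM to 12.4, 11.8 and 12.7 FPKM (-1.07 ± 0.05). COA7, an assembly factor of complex IV, fell from 16.5, 15.7 and 15.3 FPKM to 0.89, 0.923 and 1.29 FPKM (-3.05 ± 0.08). TCA cycle genes showed no common direction, with 5 of 18 higher and 8 lower, against 10 and 5 after median-of-ratios scaling.

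All 78 cytosolic ribosomal protein genes were higher, with a median of 0.97, from 0.56 for RPS7, which turned to -0.21 after quantile normalization, to 1.67 for RPL28. Their share of all FPKM went from between 13.2 and 13.3% in normoxia to between 21.8 and 22.4% in hypoxia. RPL28 had 80.3, 82.8 and 80.5 FPKM and then 263, 258 and 263 FPKM. These are abundant transcripts, and all tested genes over 100 FPKM had a median change of 0.51. The median of their longest transcripts was 1842 nucleotides, and tested genes of 1000 to 2000 nucleotides had a median change of 0.02. After quantile normalization the median of the ribosomal protein genes was 0.32, with 64 called higher and 2 called lower. With the length and GC trend removed 78 were higher, with a median of 1.00. Genes that build ribosomes were mostly lower. Of 27 ribosome biogenesis and RNA polymerase I genes 20 fell and 4 rose (median -0.48). Of 49 mitochondrial ribosomal protein genes 16 rose and 22 fell, against 25 and 15 after median-of-ratios scaling.

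Cytosolic heat shock genes were higher in 14 of 21 cases and lower in 6, with a median of 0.69. HSPA8, the constitutive HSP70, had 66.1, 63.6 and 66.2 FPKM in normoxia and 799, 842 and 866 FPKM in hypoxia (3.66 ± 0.04), and it holds small nucleolar RNAs in its introns on the same strand. The inducible HSP70 genes HSPA1A and HSPA1B, which are near-identical, had changes of 3.42 and 3.46, HSPA1B from 5.12, 5.69 and 4.64 FPKM to 67.1, 64.4 and 68.5 FPKM. HSP90AB1 and HSP90AA1 rose by 1.81 and 1.79 and HSPB1 by 1.32. HSPA4, an HSP110 family exchange factor, fell by 1.52, the cochaperone gene DNAJB6 by 0.93 and HSF1, the heat shock transcription factor, by 0.52.

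Of 23 genes of protein folding in the endoplasmic reticulum 13 rose and 7 fell, with a median of 0.42. The chaperone genes CALR, HSP90B1, PDIA6, PDIA3 and HSPA5 rose by 1.64, 1.19, 0.98, 0.89 and 0.82, CALR from 78.6, 71.8 and 76.6 FPKM to 235, 242 and 238 FPKM. Of the 3 sensors of misfolding, EIF2AK3, counted with the ATF4 axis, was not called (-0.06, adjusted p = 0.399, and 0.11 after median-of-ratios scaling), and ERN1 and ATF6 fell by 1.50 and 0.95, ERN1 from 3.74, 4.26 and 4.16 FPKM to 0.913, 0.771 and 0.668 FPKM. XBP1, the transcription factor that ERN1 activates by splicing, fell by 1.69, from 76.9, 71.9 and 74.1 FPKM to 23.5, 22.7 and 21 FPKM.

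Genes of DNA replication were mostly higher, with 21 of 29 up, 4 down and a median of 0.56. ORC1, which marks replication origins, had 2.47, 2.49 and 2.67 FPKM in normoxia and 13.6, 13.1 and 13.5 FPKM in hypoxia (2.03 ± 0.05). CDT1, which loads the MCM helicase, rose by 1.99, the helicase subunits MCM4, MCM2 and MCM3 by 1.39, 1.15 and 0.74, and the sliding clamp PCNA by 1.24. CDC6, the other loading factor, fell by 0.72, from 12.7, 12.1 and 13.1 FPKM to 7.59, 6.91 and 7.38 FPKM. Of 34 genes of mitosis 10 were higher and 18 lower, shares near those of all tested genes (31.2% and 51.9%). Their median of -0.14 turned to 0.06 after median-of-ratios scaling. CENPF and CENPE, of the kinetochore, fell by 1.61 and 1.45, and the proliferation marker MKI67 by 1.37, while the checkpoint gene MAD2L1 and the cytokinesis gene ANLN rose by 1.19 and 1.05. CENPF had 83.3, 85.4 and 85.7 FPKM and then 27.3, 28.1 and 25.8 FPKM. Of 12 mitotic kinesin genes, the motors of the spindle, 8 fell and 1 rose (median -0.55). After median-of-ratios scaling 7 of them fell and 4 rose (median -0.35). KIF23 and KIF14 fell by 1.44 and 1.23.

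The joint fit of all 12 libraries tests whether these changes differ from those of KYSE150 as an interaction of line and oxygen, which was called for 63.3% of 12653 genes, 27.3% positive (a KYSE410 log2 change above that of KYSE150, which includes smaller falls) and 36% negative. For the mitotic genes 31 of 34 were negative and 2 positive, and for the kinesins 12 of 12 were negative, against KYSE150 medians of 1.13 and 0.86. CCNB1, cyclin B1, changed by -0.95 in KYSE410 and by 1.20 in KYSE150 (difference -2.15 ± 0.10, adjusted p = 1.475e-08), and AURKA, a mitotic kinase, by -0.74 and 1.39 (difference -2.13 ± 0.07, adjusted p = 2.358e-09). For the replication genes 26 of 29 were positive and 1 negative, for ribosomal proteins 77 of 78 were positive, and for nuclear respiratory genes 47 of 58 were positive and 1 negative. KYSE150 normoxia replicate 2 differs more from its group than any KYSE410 library does from its own, and without it 31 mitotic genes were negative, 27 replication genes positive and 76 ribosomal protein genes positive. With a common sum, 32 mitotic, 12 kinesin, 22 replication, 37 respiratory and 72 ribosomal protein genes had these signs. In these differences, too, oxygen in KYSE410 cannot be told apart from its library set.

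**Figure D5:**
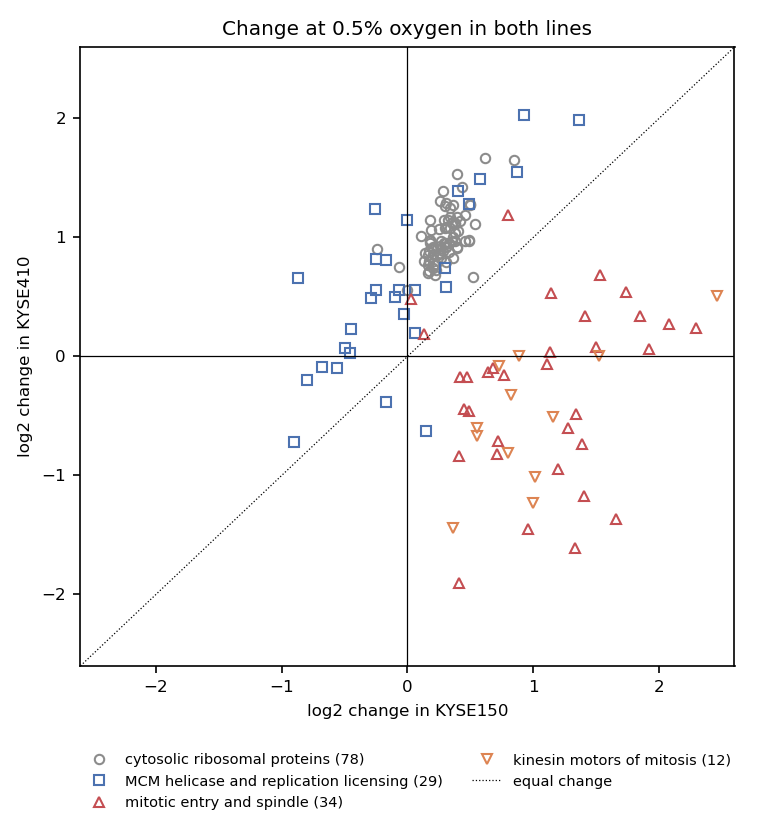
Log2 change in KYSE410 (vertical) against KYSE150 (horizontal) for 4 gene lists, each symbol 1 gene, with a dotted line of equal change. Most mitotic and all kinesin genes lie below the line, with a negative interaction called for 31 of 34 and 12 of 12, and most replication and ribosomal protein genes lie above it.

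Basal squamous genes were higher in 13 of 14 cases and lower in 1, with a median of 0.95. KRT15, a keratin of basal cells, had 15.9, 15 and 17.9 FPKM in normoxia and 193, 178 and 191 FPKM in hypoxia (3.45 ± 0.06). KRT17 went from 66.3, 70.1 and 71.7 FPKM to 535, 537 and 545 FPKM (2.94 ± 0.04), and KRT14 and KRT5, the basal keratin pair, had changes of 2.18 and 1.50. The hemidesmosome genes COL17A1 and ITGB4 rose by 2.14 and 1.27. TP63, the lineage transcription factor, rose less, from 33.6, 33.3 and 35.7 FPKM to 49.7, 51.3 and 51 FPKM (0.56 ± 0.04). LAMB3, a laminin-332 chain, fell by 0.41.

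Differentiation genes of the upper layers were mostly too low to test, with 10 of 25 tested, 7 higher and 2 lower. KRT6A, a wound keratin, went from 4.53, 5.31 and 5.25 FPKM to 17.8, 18.3 and 17.2 FPKM (1.64 ± 0.06). S100A9, a calcium-binding protein of squamous cells, fell by 1.16, from 5.19, 5.4 and 4.54 FPKM to 1.46, 1.52 and 2.2 FPKM, and the transcription factor gene KLF4 was at -0.24, which turned to 0.10 after quantile normalization and lost its call without normoxia replicate 1 (-0.18) or hypoxia replicate 2 (-0.19). Among desmosome genes, which join squamous cells, 7 of 11 rose and 3 fell. PERP and JUP rose by 1.80 and 1.09, and the cadherin genes split, DSG2 up by 0.90 from 45.7, 50.1 and 47.3 FPKM to 90.6, 89.7 and 88.8 FPKM, and DSG3 down by 0.78 from 23.4, 26.9 and 25.5 FPKM to 14, 14.4 and 14.3 FPKM.

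Ligands of the EGF receptor family were lower. HBEGF had 23.9, 22.6 and 27.4 FPKM in normoxia and 1.46, 1.56 and 1.99 FPKM in hypoxia (-3.27 ± 0.09). NRG1, the ligand of ERBB3, went from 133, 137 and 130 FPKM to 27.3, 27.6 and 27.5 FPKM (-2.24 ± 0.03), and AREG and TGFA fell by 2.16 and 1.00. Of 8 genes of the family 7 fell and 1 rose. The receptor gene ERBB3 fell by 0.81 and ERBB2 rose by 0.48, whereas EGFR had 89.7, 90.6 and 91.5 FPKM and then 71.5, 70.7 and 73 FPKM (-0.33), a direction that turned to 0.21 with the length and GC trend removed. Of 13 AP-1, EGR and immediate early genes 6 rose and 6 fell, with a median of -0.01 that turned to 0.19 after median-of-ratios scaling. EGR1, an immediate early factor, went from 18, 22.5 and 18.7 FPKM to 0.3, 0.465 and 0.56 FPKM (-3.84 ± 0.10), FOSL1 fell by 1.32 and JUNB rose by 1.62. Of 15 MAPK feedback genes 5 rose and 7 fell, against 8 and 7 after quantile normalization. PHLDA1 fell by 2.92, and IER3 rose from 79.3, 69.6 and 75.4 FPKM to 737, 713 and 756 FPKM (3.28 ± 0.05).

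Cytokine genes were lower in 9 of 11 cases and higher in 1, with a median of -0.88. IL1A had 176, 131 and 190 FPKM in normoxia and 14.4, 15.3 and 13.9 FPKM in hypoxia (-3.41 ± 0.12), and IL6 110, 99.8 and 127 FPKM and then 14.4, 13.7 and 17.4 FPKM (-2.81 ± 0.10). IL11, LIF and IL18 fell by 1.64, 1.02 and 0.79, while the groups of CXCL8 overlapped at 14.6, 9.83 and 14.6 FPKM and 13.8, 15.4 and 16.4 FPKM (0.23, adjusted p = 0.155). In the NF-kB pathway 11 of 15 genes fell and 4 rose. TRAF1, RELB and NFKB1 fell by 1.65, 1.46 and 1.12, and the inhibitor gene NFKBIA rose by 1.49, from 21.3, 19.8 and 21.6 FPKM to 61, 58 and 62.9 FPKM.

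Targets and partners of YAP and TEAD, the effectors of Hippo signalling, were lower in 16 of 19 cases and higher in 1, with a median of -0.72. F3, tissue factor, had 354, 362 and 399 FPKM in normoxia and 74, 71 and 69.7 FPKM in hypoxia (-2.36 ± 0.05). The matricellular gene CCN2 fell by 1.77 and the feedback gene AMOTL2 by 1.45, while CCN1, often measured with CCN2, had 330, 340 and 359 FPKM and then 314, 325 and 348 FPKM, with overlapping groups (adjusted p = 0.247 and a sign that turned to 0.15 after median-of-ratios scaling and to 0.05 with the length and GC trend removed). TEAD1, the DNA-binding partner, fell by 1.32, from 31.4, 34.5 and 32.9 FPKM to 13, 12.6 and 12 FPKM.

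Of 20 NRF2 targets 8 rose and 9 fell, with a median of -0.01 that turned to 0.19 after median-of-ratios scaling. TXNRD1, thioredoxin reductase, had 370, 395 and 390 FPKM in normoxia and 42, 42 and 38 FPKM in hypoxia (-3.21 ± 0.05), and SRXN1, GCLC, ABCC3 and NFE2L2, which encodes NRF2 itself, fell by 2.52, 2.37, 1.97 and 1.39. The peroxiredoxin gene PRDX1 rose by 1.37. The summed level of the NRF2 list was 3469 to 3688 FPKM in normoxia and 6651 to 6842 FPKM in hypoxia, although 9 members fell. Of 15 iron and metallothionein genes 8 rose and 5 fell, with a median of 0.17 that turned to -0.05 with a common sum. The ferritin genes FTL and FTH1 rose by 1.76 and 1.18, FTL from 688, 764 and 671 FPKM to 2325, 2397 and 2449 FPKM. The metallothionein genes MT1X, MT2A and MT1E rose by 1.90, 1.77 and 1.52, while their activator MTF1 fell by 1.09. CYP1A1, the classical target of the aryl hydrocarbon receptor, had 10.5, 13.3 and 10.6 FPKM and then 88.3, 84.7 and 96.8 FPKM (2.87 ± 0.09), while AHR, the receptor gene, fell by 0.95 and CYP1B1 by 0.70. In KYSE150 CYP1A1 changed by -0.84, a difference of 3.71 ± 0.14 (adjusted p = 4.380e-09).

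Some genes were near absent at one oxygen level. In each direction 11 genes lay under 0.5 FPKM on average in one group and at 5 FPKM or more in the other. DEPP1, a FOXO target, had 0.445, 0.385 and 0.32 FPKM in normoxia and 29.8, 26.7 and 29.5 FPKM in hypoxia, and ANKRD37, a HIF target, 0.519, 0.376 and 0.557 FPKM and then 21.2, 21 and 22.8 FPKM. CASP14, the caspase of cornifying cells, had 0.129, 0.145 and 0.116 FPKM and then 9.24, 8.42 and 10.3 FPKM. CLEC2B, a lectin gene, had 0.333, 0.525 and 0.269 FPKM and then 11.8, 12 and 10.9 FPKM. In the other direction, beside CHAC1 and EGR1, TIGAR, a bisphosphatase that slows glycolysis, went from 5.83, 5.76 and 5.68 FPKM to 0.318, 0.302 and 0.422 FPKM. These genes were chosen for this difference in level, so it is given without a test.

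Of 18 commonly used reference genes 10 were higher, 5 lower and 3 not called, so the share called was close to the 83.1% of all tested genes. The directions differed from those of all tested genes, of which 31.2% were higher and 51.9% lower. The median of the reference genes was 0.53, and 0.06 after quantile normalization, with 8 higher and 7 lower. PGK1, GAPDH, TUBB, SDHA and RPLP0 rose by 2.20, 2.02, 1.76, 1.18 and 0.97, and PPIA, POLR2A, HPRT1 and GUSB by 0.77, 0.57, 0.53 and 0.53. TBP, IPO8 and ACTB fell by 1.38, 0.55 and 0.31. B2M, TFRC and YWHAZ were not called (adjusted p of 0.931, 0.474 and 0.216), and the sign of each differed between scalings. B2M had 282, 294 and 285 FPKM in normoxia and 288, 282 and 289 FPKM in hypoxia, so its groups overlapped. GAPDH, at 1810, 1801 and 1903 FPKM and then 7565, 7289 and 7495 FPKM, had the largest gain in FPKM of any tested gene.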

How the data were processed

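Per the labels' protocols, TRIzol RNA went through bead capture of mRNA. The submitters' processing notes name bcl2fastq 2.20, fastp 0.22.0, HISAT2 2.2.1 and hg38; which quantifier, annotation and strand rule were used is not given in the sources at hand. Each line has its own deposited table of FPKM, without counts. The values show no steps of whole reads (at most 1.29% of genes under 0.1 FPKM shared the commonest ratio between any library pair). Genes averaging 1 FPKM or more across the 6 KYSE410 libraries were tested on log2(FPKM + 1) in limma 3.58.1 under R 4.3.3 (moderated by empirical Bayes, trend on mean level, two-sided, Benjamini-Hochberg over all tested genes, called under 0.05). This scale understates changes of genes with low values. A joint fit of 12 libraries gave the difference between lines. The fits were also run on values simulated from their own model with most genes unchanged, which does not test the calls made here.

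The members and the 67 gene lists were chosen with earlier results of these data known. Named genes follow a rule: the 15 largest changes and 10 largest FPKM differences each way, genes near absent in 1 group, up to 4 called members per list and every member of lists with at most 12 tested, the reference genes and the 5 largest differences from KYSE150 each way. Further list members were named after their values were seen, and the text leaves out part of what the rule takes. Lengths and GC content (11607 of 12054 tested genes) and gene positions came from GENCODE 29, promoters from RefSeq. Tables were handled with pandas 2.3.3 and numpy 2.4.6 in Python 3.11.15 and drawn with matplotlib 3.10.9. Alternatives covered scaling, pseudocount (0.1), filters (none, 5 FPKM), threshold (0.01), replicate block, length with GC, and leaving out each library.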

Additional observations from a re-analysis of the deposited data

Results flagged for a closer look

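The 10 genes below have a change in KYSE410 that differs from that in KYSE150 by the interaction test, and are the 5 largest such differences each way among the largest changes in KYSE410. The choice used the same values as the differences printed here, which are therefore large by selection. Their adjusted p-values are not separate evidence. DEPP1 changed by 4.42 in KYSE410 and by -0.05 in KYSE150, where it averaged 0.266 and 0.221 FPKM (difference 4.48 ± 0.12, adjusted p = 3.106e-10). KRT15 changed by 3.45 and 0.21, with 0.0745 and 0.243 FPKM in KYSE150 (difference 3.24 ± 0.11, adjusted p = 3.304e-09). HILPDA, a lipid droplet protein gene, changed by 5.86 and 3.62, a difference of 2.24 ± 0.09 between rises (adjusted p = 5.162e-09). In KYSE410 HILPDA had 7.27, 7.41 and 6.71 FPKM in normoxia and 471, 463 and 482 FPKM in hypoxia. MIR7111, which lies inside RPL10A on the same strand and is therefore uncertain, changed by 4.07 and 0.75 (difference 3.32, adjusted p = 9.116e-09). H2AC19, a histone gene near-identical to H2AC18, changed by 3.45 and 1.21 (difference 2.24, adjusted p = 7.386e-08).

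In the other direction HBEGF changed by -3.27 in KYSE410 and by 0.26 in KYSE150, where it averaged 1.5 and 1.98 FPKM (difference -3.52 ± 0.15, adjusted p = 1.097e-08). IL1A changed by -3.41 and -0.21, with 0.216 and 0.0438 FPKM in KYSE150 (difference -3.20 ± 0.18). On the log2(FPKM + 1) scale the low KYSE150 levels of IL1A and HBEGF leave little room for a fall in that line, so a large difference was in part set by level. SLC35F6, which overlaps CENPA on the same strand, changed by -3.36 and -1.42 (difference -1.94, adjusted p = 8.410e-09). MICAL2, an actin-oxidizing enzyme, changed by -3.18 and -1.27 (difference -1.91, adjusted p = 6.560e-06), and SLFN5 by -3.10 and -1.53 (difference -1.58, adjusted p = 1.368e-05).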

How the results depend on the processing

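The counts of higher and lower genes in KYSE410 stayed within 1.5 times the reported counts under the alternatives run, except that a minimum mean of 5 FPKM, which tests fewer genes, gave 4007 lower genes. Among changes of 1 or more, 758 higher genes became 1150 after median-of-ratios scaling, 1141 after quantile normalization and 472 with a common sum, and 1848 lower genes became 1136 after quantile normalization, 1184 with the 5 FPKM minimum and 1082 with the length and GC trend removed; apart from the minimum, the cause was not tested. Leaving out each library in turn gave 3538 to 3761 higher and 5995 to 6220 lower genes.

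With the replicate number as a block, 3730 genes were higher and 6201 lower. Deviations of same-numbered libraries correlated at -0.045, -0.008 and 0.02, and those of differently numbered libraries at -0.038 to 0.043. These values show no sign of pairing by number, but with 3 libraries per group they cannot exclude it.

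Among the genes named, signs turned as follows. With a common sum, TFRC was at -0.20 and YWHAZ at -0.12. After quantile normalization, YWHAZ was at -0.25, RPS7 at -0.21, EIF2AK3 at 0.28, EGLN1 at 0.21 and KLF4 at 0.10. After median-of-ratios scaling, B2M was at 0.21, EGLN1 at 0.19, CCN1 at 0.15 and EIF2AK3 at 0.11. With the length and GC trend removed, EGLN1 was at 0.45, VEGFA at 0.31, EIF2AK3 at 0.30, EGFR at 0.21, B2M at 0.18, CCN1 at 0.05 and SLC16A1 at 0.04. Leaving out 1 library moved B2M between -0.02 and 0.01 and TFRC between -0.01 and 0.08. The depth of the libraries is unknown, so no counting error is given, and oxygen and library set stay confounded in KYSE410 under every alternative.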

Other observations

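Of 25 SR protein, hnRNP and CLK genes 9 rose and 13 fell, shares near those of all tested genes (31.2% and 51.9%), and with the length and GC trend removed 14 rose and 8 fell. CLK3, CLK1 and CLK4, kinases that phosphorylate SR proteins, rose by 1.72, 1.01 and 0.96, CLK3 from 14, 15.6 and 14.2 FPKM to 49.6, 50.6 and 51.2 FPKM. SRSF7, TRA2B, TRA2A and SRSF6, which are SR or SR-like proteins, fell by 1.96, 1.76, 1.71 and 1.19, SRSF7 from 106, 98.9 and 111 FPKM to 25.5, 27.2 and 26 FPKM. In the same list HNRNPA1, which has near-identical copies and is uncertain, rose by 1.28 and SRSF2 by 0.51. Of 10 long noncoding RNAs 8 rose and 1 fell, with a median of 1.21. MALAT1 had 13.7, 18.3 and 15.1 FPKM in normoxia and 47.1, 55.1 and 50.8 FPKM in hypoxia (1.65 ± 0.10), NEAT1, UCA1 and H19 rose by 1.61, 1.58 and 1.44, and TUG1 fell by 0.70.

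Replication-dependent histone genes rose in 10 of 13 cases and fell in 3. The libraries were made from mRNA captured on beads, and how much histone mRNA this capture took was not measured. H2BC21 had 2.08, 2.16 and 2.48 FPKM in normoxia and 32.8, 30.4 and 34 FPKM in hypoxia (3.37 ± 0.06), and H1-2 rose by 2.14, values that are uncertain because these genes have near-identical copies. Of 26 histone methyltransferase and demethylase genes 19 fell and 3 rose (median -0.46), which became 11 lower and 10 higher with the length and GC trend removed. KDM4A went from 24.6, 27.4 and 24.9 FPKM to 4.99, 5 and 5.2 FPKM (-2.13 ± 0.05). Of 147 small nucleolar RNA genes tested, 106 were higher and 16 lower, with a median of 0.81, and of 308 processed pseudogenes 195 were higher and 56 lower, with a median of 0.58. These are short features, mostly inside or copied from other genes, whose values depend on how fragments were assigned.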
